A study of Mus musculus with 5 samples.

Results

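The E2F transcription factors, their DP dimerisation partners and the RB pocket proteins that hold them in check were followed as a gene family in erythroid cells of the mouse fetal liver. The 10 genes were E2f1, E2f2, E2f3, E2f4, E2f8, Tfdp1, Tfdp2, Rb1, Rbl1 and Rbl2, taken by name from a deposited table of 39179 genes. All 10 were among the 13000 genes with enough counts to be tested, and no library held fewer than 704 counts of any of them. The libraries were made from messenger RNA of cells sorted for TER119, a surface protein of maturing red cell precursors, at embryonic day 14.5. The 3 control embryos were Csnk2b+/+ and the 2 KO embryos were Csnk2b fl/fl, all on the C57BL/6 strain, and both groups carried the Vav Cre allele. Csnk2b encodes CK2 beta, the regulatory subunit of a widely acting protein kinase. The Vav1 promoter drives Cre throughout the blood-forming system, so deletion was not limited to red cell precursors. The titles name each library as an embryo with a number and do not say whether embryos were pooled. The spread behind each p-value may therefore not be that between single embryos.

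E2F factors bind DNA as dimers with a DP protein and control the genes that carry a cell from G1 into DNA synthesis. Pocket proteins mask the activation surface of the E2F and bring in repressors until cyclin-dependent kinases phosphorylate them. E2F1, E2F2 and E2F3 are the activating factors and bind mainly RB, E2F4 works chiefly as a repressor with p107 and p130, and E2F8 is an atypical factor that needs neither a DP partner nor a pocket protein. Red cell precursors divide quickly and then leave the cell cycle as they mature, and mouse embryos without Rb1 or E2f4 are known for fetal anaemia.

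The promoter sequences of the family are shown first because several E2F and RB family genes are themselves known E2F targets. RefSeq windows on GRCm38, from 250 bases before to 50 after each transcript start, were found for 8 of the 10 genes, leaving out E2f4 and Rb1. Both strands were searched for the E2F letters TTTCCCGC, TTTCGCGC, TTTGCCGC and TTTGGCGC, and for TTTGAA, the letters of the cell cycle homology region (CHR) bound by the MuvB complex. E2F letters stood in the windows of 4 of the 8 genes, Rbl1, Tfdp1, E2f3 and E2f2, against 2.61% of all 27025 genes and 2.26% of all 32851 windows. CHR letters stood in 4 of the 8, E2f2, E2f3, E2f8 and Rbl2, against 20.2% of all genes and 17.9% of all windows. The stretches around the E2F letters run 5′ to 3′ on the gene's strand, with capitals for every match. No 2 matches overlapped.
Rbl1, chr2:157204535-157204578, minus strand: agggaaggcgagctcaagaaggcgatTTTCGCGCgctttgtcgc
Tfdp1, chr8:13338682-13338741, plus strand: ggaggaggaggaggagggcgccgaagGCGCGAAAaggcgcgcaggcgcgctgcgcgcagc
E2f3, chr13:29986064-29986112, minus strand: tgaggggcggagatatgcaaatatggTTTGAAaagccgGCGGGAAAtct
E2f2, chr4:136172302-136172323, plus strand: gcggcatatagTTTGGCGCtaa
The Rbl1 match began 18 bases before the RefSeq start and the E2f3 match 11 bases before it, with CHR letters 23 bases before it in E2f3. In E2f2 the E2F and CHR letters belong to windows of different starts, and the E2F match lay after a RefSeq start that is itself upstream of the gene's start in GENCODE release M21. The E2f1 window lay wholly inside the GENCODE gene and held neither set of letters, as did the windows of Tfdp2. A match describes the letters only and is not evidence of binding.

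Totals ranged from 13187094 to 15366021 counts per library, and Csnk2b, the deleted gene, served to check the labels. Values are CPM, a gene's counts scaled to library size with TMM factors, where 1 CPM is 13.2 to 15.4 counts, and are listed in the order control replicate 1, 2, 3 and KO replicate 1, 2. Csnk2b had 186, 186 and 169 CPM in controls against 112 and 95.6 CPM in the KO pair, which was 1.74-fold lower (edgeR adjusted p = 0.0018). The counts cover the whole gene, including any exons outside the deleted part. The KO libraries differed more from each other than the controls did. The median absolute log2 ratio over genes was 0.17 between them and 0.094 to 0.11 between controls. Control replicate 3 held 1142 counts of 4 Y-linked genes and the other libraries, both KO libraries among them, at most 2. No E2F, DP or RB family gene lies on a sex chromosome, and the part of embryo sex in their values was not tested. Erythroid genes were the most abundant of the cell type lists, at a summed 87269 to 104990 CPM in controls and 78199 to 98806 CPM in KO libraries, with Hbb-bs, an adult beta globin gene, at 17893 CPM ± 2106 (SD, n = 3) in controls. Slc4a1, for the anion exchanger band 3, stood at 18270 CPM ± 1433 (SD, n = 3). None of the 17 erythroid genes tested passed in edgeR (2 lower in DESeq2, 0 called in limma-voom). At an unadjusted p under 0.05 in edgeR 3 of the 17 were lower, against 9.48% of all genes. In bulk RNA, fewer cells of a type and less RNA per cell cannot be told apart.

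Levels were compared between genes as CPM per kilobase of the union of a gene's exons. E2f4 and E2f2 made up most of the E2F RNA. In controls E2f4 was at 339 ± 21.7 and E2f2 at 284 ± 21.2 CPM per kilobase (SD, n = 3), and E2f8 followed at 84.2 ± 3.08 and E2f1 at 38.0 ± 2.02. E2f3, at 10.5 ± 0.39, and the 3 family genes outside the list, E2f6 at 9.25 ± 0.49, E2f7 at 8.09 ± 0.30 and E2f5 at 5.78 ± 0.27, were the lowest. As a share of the summed E2F level, E2f4 took 43.4%, 43.9% and 43.3% in controls and 39.7% and 43.3% in KO libraries. E2f2 took 35.6%, 36.4% and 37.2% in controls and 40.2% and 37.5% in KO libraries, so by this length it was level with E2f4 in KO replicate 1. The E2f8 share was 11.3%, 10.7% and 10.5% in controls and 10.7% and 8.87% in KO libraries. With the longest transcript as the length, E2f4 and E2f2 kept the first and second place in control means, while E2f6 and E2f7 then stood above E2f3. By that length E2f4 took 41.4% and E2f2 35.1% in KO replicate 1, so they were no longer level.

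Among the DP genes, Tfdp1 and Tfdp2 were close in level, at 50.8 ± 1.80 and 53.1 ± 0.90 CPM per kilobase in controls (SD, n = 3), and their values overlapped between libraries. The exons of Tfdp2 add up to 14029 bases but its longest transcript has 7354, and by the longest transcript Tfdp2 was at 101 and Tfdp1 at 66.9 CPM per kilobase in controls. In KO libraries the order of the means turned with the length, with Tfdp2 at 41.2 and Tfdp1 at 47.2 by the exon union and at 78.7 and 62.2 by the longest transcript. Tfdp2 took 49.6%, 51.8% and 51.9% of the DP level in controls and 48.1% and 44.9% in KO libraries, so both KO values lay below all controls. Of the pocket proteins Rb1 led at 50.3 ± 1.05 CPM per kilobase in controls, before Rbl1 at 25.8 ± 0.21 and Rbl2 at 7.78 ± 0.17 (SD, n = 3), with no overlap between them in any control. Rb1 took 59.8%, 59.7% and 60.4% of the pocket protein level in controls and 64.0% and 60.9% in KO libraries. The Rbl1 share was 31.0%, 31.1% and 30.3% in controls and 26.7% and 29.0% in KO libraries. With 3 against 2 libraries these shares are given without a test.

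**Figure D1:**
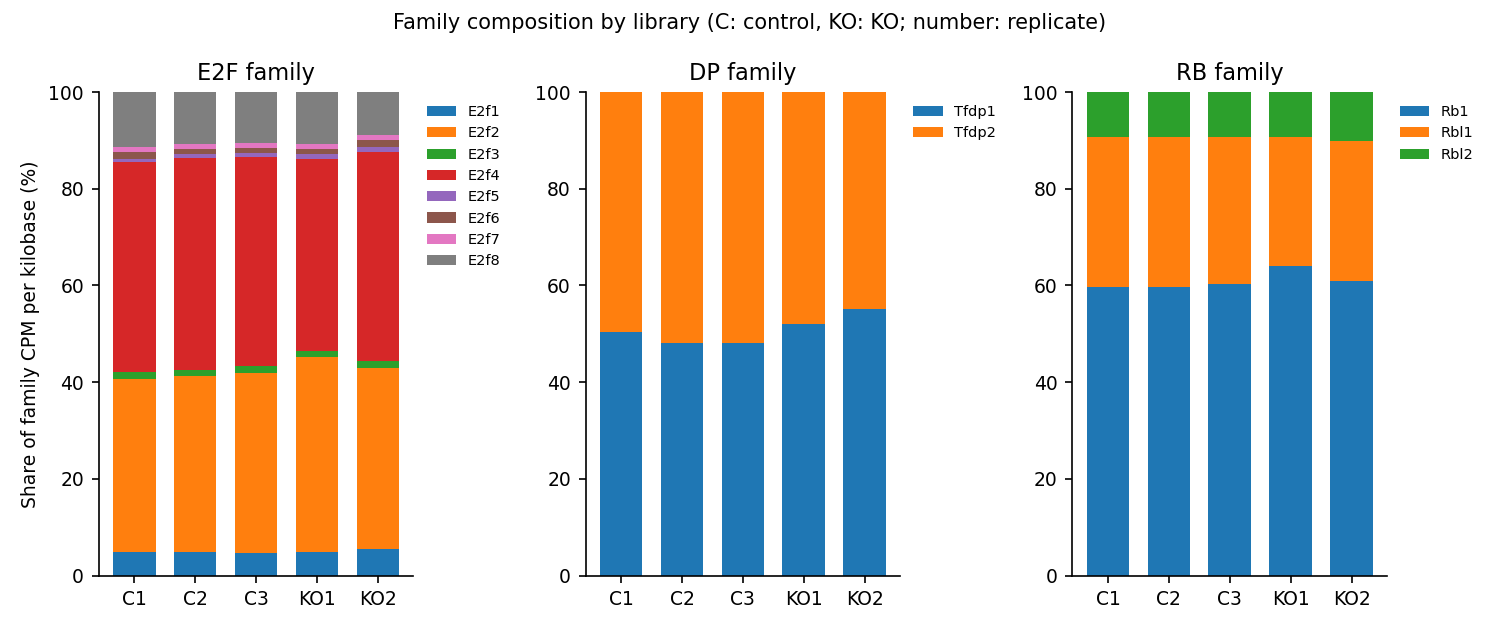
Share of each gene in its family's summed CPM per kilobase of exon, as stacked bars for control replicates 1 to 3 (C1 to C3) and KO replicates 1 and 2. E2f4 and E2f2 fill most of the E2F bars, and the Rbl1 segment is shorter in both KO libraries (26.7% and 29.0%) than in any control (30.3% to 31.1%).

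The main comparison asked whether RNA of the family differed between KO and control cells. In edgeR, 0 of the 10 genes passed an adjusted p of 0.05 in either direction, beside 1.83% of all genes tested that were lower and 5.15% that were higher. An unadjusted p under 0.05 was reached by 4 of the 10, Tfdp2, Rbl1, E2f4 and E2f8, all with lower KO means, against 9.48% of all genes that were lower at that level. DESeq2 called 1, Tfdp2, and limma-voom called 0, where DESeq2 called 2.22% of all genes lower. All 10 log2 fold changes were below 0, from -0.37 to -0.05 with a median of -0.11, while 47.5% of all genes tested were below 0 and their median was 0.015. Leaving out KO replicate 1 moved the median of the 10 to -0.24, and leaving out KO replicate 2 moved it to -0.067. The erythroid list had a like shift, with 16 of 17 genes below 0, a median of -0.11 and 6 of 17 with both KO libraries below all controls. The same steps moved its median to -0.25 and to -0.0094, and its part in the family's values was not tested. In 6 of the 10 both KO libraries lay below all controls, an arrangement found in 19.3% of all genes, and in 0 of the 10 both lay above, against 21.9%. The 6 genes were E2f3, E2f4, E2f8, Tfdp1, Tfdp2 and Rbl1.

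**Figure D2:**
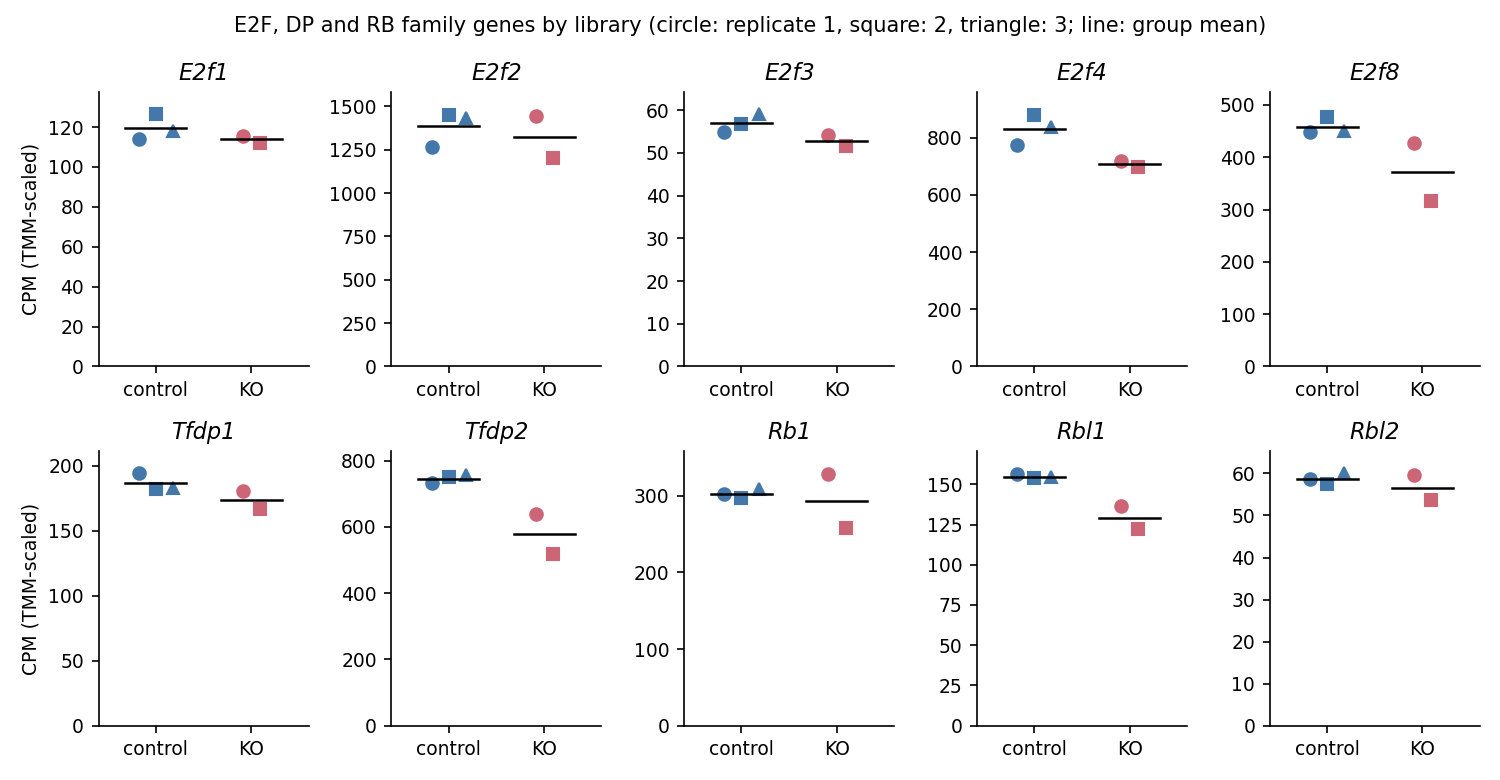
TMM-scaled CPM of the 10 genes in each library, with control libraries in blue, KO libraries in red and a line at each group mean; every vertical axis starts at 0. Tfdp2 and Rbl1 sit lower in both KO libraries than in any control, and in all 10 panels KO replicate 2 (square) is below KO replicate 1 (circle).

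Among the activating factors, E2f1 (chr2:154559407-154569892, minus strand), whose product binds RB in G1, stood at 114, 127 and 118 CPM in controls and at 115 and 112 CPM in KO libraries. The groups overlapped, and the log2 fold change was -0.07 with a 95% interval of -0.24 to 0.09. E2f2 (chr4:136172394-136196057, plus strand), a factor with a known part in red cell maturation, was at 1265, 1453 and 1435 CPM in controls and at 1445 and 1202 CPM in KO libraries. One KO value lay within the controls and the other below them. Its log2 fold change was -0.06 ± 0.11 (SE; edgeR adjusted p = 0.77), with an interval of -0.32 to 0.19. E2f3 (chr13:29906575-29986063, minus strand) was at 54.9, 56.7 and 59.2 CPM in controls and at 54.1 and 51.7 CPM in KO libraries, just below them, with an edgeR adjusted p of 0.43.

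E2f4 (chr8:105297663-105305370, plus strand), the main repressive factor, was at 774, 879 and 838 CPM in controls and at 717 and 697 CPM in KO libraries. Both KO values were below all controls, and the mean was 14.8% lower. The log2 fold change was -0.23 ± 0.09 (SE), with a 95% interval of -0.43 to -0.03, and the edgeR adjusted p was 0.15. E2f8 (chr7:48866429-48881596, minus strand), the atypical repressor, was at 448, 478 and 450.1 CPM in controls and at 427 and 317 CPM in KO libraries. KO replicate 1 was just under the lowest control and KO replicate 2 far under it, so the KO mean of 372 CPM carried an SD of 78.1 (n = 2). Its log2 fold change of -0.30 ± 0.12 (SE) had an edgeR adjusted p of 0.17, and was -0.56 with KO replicate 1 left out and -0.11 with KO replicate 2 left out.

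Of the DP partners, Tfdp1 (chr8:13338751-13378448, plus strand) was at 194, 182 and 183 CPM in controls and at 180.3 and 166 CPM in KO libraries. The difference was within what the model allows for replicates, with a log2 fold change of -0.10 ± 0.07 (SE; edgeR adjusted p = 0.41). Tfdp2 (chr9:96196275-96323646, plus strand), the second DP gene, was at 731, 750.3 and 755 CPM in controls and at 638 and 519 CPM in KO libraries. It showed the lowest log2 fold change of the family. Both KO values lay below the narrow range of the controls, and the KO mean was 22.4% lower. The log2 fold change was -0.37 ± 0.10 (SE), with a 95% interval of -0.59 to -0.14. The edgeR adjusted p was 0.062, which missed the threshold, and adjusted p was 0.054 in limma-voom and 0.0057 in DESeq2. It was -0.54 with KO replicate 1 left out and -0.23 with KO replicate 2 left out.

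Rb1 (chr14:73183673-73325822, minus strand), the retinoblastoma gene, was at 302, 297 and 309 CPM in controls and at 328 and 258 CPM in KO libraries. The KO libraries fell on either side of all controls. The log2 fold change was -0.05 ± 0.10 (SE; edgeR adjusted p = 0.82), with an interval of -0.28 to 0.18. It was -0.25 with KO replicate 1 left out and 0.11 with KO replicate 2 left out, so its direction rested on which KO library was used. Rbl1 (chr2:157145893-157204534, minus strand) encodes p107, which pairs with E2F4. It was at 156, 154 and 155 CPM in controls, the tightest control group of the family with an SD of 0.80% of the mean, and at 137 and 122 CPM in KO libraries. Both KO values were lower than every control, and the mean was 16.5% lower. The 95% interval of its log2 fold change of -0.26 ± 0.07 (SE) ran from -0.43 to -0.09, and the adjusted p was 0.067 in edgeR, 0.068 in DESeq2 and 0.073 in limma-voom. Rbl2 (chr8:91070057-91123844, plus strand) encodes p130, the pocket protein of resting cells. It was at 58.7, 57.5 and 60.1 CPM in controls and at 59.6 and 53.7 CPM in KO libraries, with overlapping groups and an edgeR adjusted p of 0.72.

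Exons of Rb1 share 488 and 408 bases with Rcbtb2 and Lpar6 on the opposite strand, and exons of Rbl2 share 693 bases with Aktip. The counts of those neighbours, at most 132, 42 and 58 in any library, were small beside the 3893 to 4699 of Rb1 and the 755 to 912 of Rbl2. E2f8 shares 610 bases with Gm2788, which had at most 26 counts. The sources used here do not state a strand setting for the counting, and reads of the shared stretches cannot be assigned. The counts also do not separate isoforms, such as those of E2f3.

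**Figure D3:**
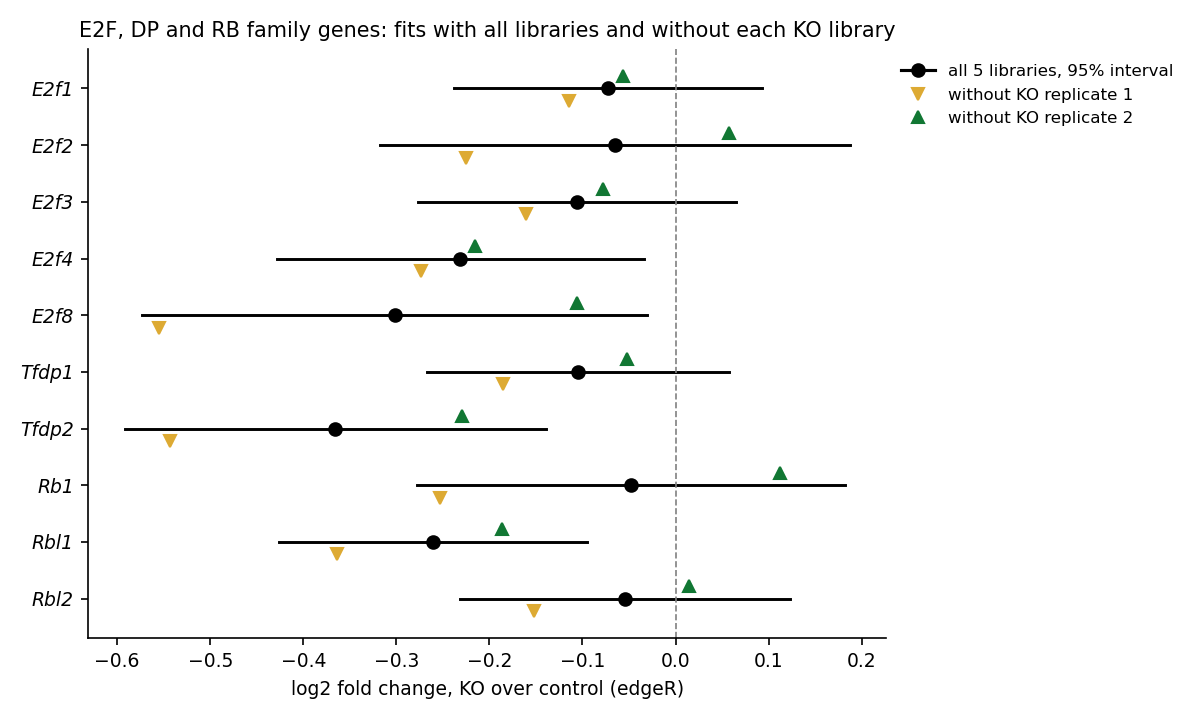
Log2 fold change of KO over control for each gene with its 95% interval (black), and the same without KO replicate 1 (yellow triangles pointing down) or without KO replicate 2 (green triangles pointing up). Every value without KO replicate 1 lies further below 0 than the value without KO replicate 2, and E2f2, Rb1 and Rbl2 lie above 0 without KO replicate 2.

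The KO libraries differed in a shared direction for the 10 genes. All 10 genes were lower in KO replicate 2 than in KO replicate 1, whereas 49.4% of all genes tested were. The median log2 ratio of KO replicate 2 to KO replicate 1 was -0.15 over the 10 genes and 0.0041 over all genes. It reached -0.43 for E2f8, -0.35 for Rb1 and -0.30 for Tfdp2. Of the E2F genes outside the 10, E2f7 had a ratio of -0.31, but E2f5 and E2f6 were higher in KO replicate 2, at 0.097 and 0.18. The erythroid list had a median ratio of -0.24 and the list of G2/M genes bound by MuvB one of -0.17, where Mki67, a proliferation marker, had 7026 CPM in the first and 5029 in the second KO library, with 7092 to 7495 CPM in controls. The part of these differences in the family's values was not tested. Without KO replicate 1, the log2 fold changes of the 10 genes ran from -0.56 for E2f8 to -0.11 for E2f1. Without KO replicate 2 they ran from -0.23 for Tfdp2 to 0.11 for Rb1. In both fits the lone KO library is assumed to vary like the controls, so calls from them are not compared with the share over all genes. Without any 1 control, edgeR called 0 of the 10.

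The other E2F genes gave no call in edgeR, DESeq2 or limma-voom, and 0 of 3 reached an unadjusted p under 0.05 in edgeR. E2f5, a repressive factor at the lowest level, was at 10.6, 9.76 and 10.6 CPM in controls and at 11.5 and 12.2 CPM in KO libraries. It was the 1 E2F gene whose KO values both lay above all controls, with a log2 fold change of 0.20 ± 0.12 (SE; edgeR adjusted p = 0.34). E2f6, a repressor that works without pocket proteins, had a log2 fold change of -0.15 ± 0.09 (SE; edgeR adjusted p = 0.32), and E2f7, the second atypical factor, one of -0.05 ± 0.10 (SE; edgeR adjusted p = 0.81).

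Upstream of the pocket proteins, the RNA of the CDK inhibitor gene Cdkn1a and of the D-type cyclin genes Ccnd1 and Ccnd2 was higher in KO cells. Cdkn1a, for p21, an inhibitor of the kinases that inactivate pocket proteins, stood at 4.57, 4.65 and 5.62 CPM in controls and at 87.6 and 67.9 CPM in KO libraries, a 15.7-fold rise (edgeR adjusted p = 2.1e-06). It was the 1 of 5 CDK inhibitors tested that passed. Among 15 cyclins and CDKs, these 2 cyclin genes rose and 0 fell in edgeR, as in DESeq2 and limma-voom. Over all genes tested, edgeR called 5.15% higher and 1.83% lower. At an unadjusted p under 0.05 in edgeR 3 of the 15 were lower, against 9.48% of all genes. The summed level of the 15 was 2953 to 3083 CPM in controls and 2818 to 2946 CPM in KO libraries. Ccnd2, whose protein activates CDK4 and CDK6, was at 103, 92.6 and 107 CPM in controls and at 149 and 167 CPM in KO libraries (edgeR adjusted p = 0.0036). Ccnd1 rose 1.53-fold (edgeR adjusted p = 0.025), but missed the threshold without control replicate 2 or 3 or KO replicate 2 and with no filter on low counts (adjusted p 0.090 to 0.12). The median log2 fold change of the inhibitors was 0.071, beside 0.015 for all genes, but it was -0.033 without KO replicate 1, 0.15 without KO replicate 2 and 0.31 with no filter. The median of the cyclins and CDKs was near 0, from -0.074 without KO replicate 1 to 0.016 without control replicate 2.

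Partners of the family on chromatin showed few single changes. The MuvB core joins E2F4 and p107 or p130 in the DREAM complex. Of 9 genes for MuvB subunits and partners, none passed in edgeR, DESeq2 or limma-voom. In edgeR 4 of the 9 had an unadjusted p under 0.05, 3 of them lower, against 23.8% and 9.48% of all genes. The median log2 fold change of the 9 was -0.11, or -0.28 if KO replicate 1 and -0.042 if KO replicate 2 was left out. Single values included Rbbp4, a histone chaperone of the MuvB core, at -0.10 ± 0.07 and Mybl2, for B-MYB, at -0.21 ± 0.08 (SE). The 23 corepressors of pocket proteins had a median of -0.043 (-0.022 without control replicate 2) and no call in edgeR, DESeq2 or limma-voom, and 0 at an unadjusted p under 0.05 in edgeR. Dnmt1, the maintenance DNA methyltransferase, had a log2 fold change of -0.04 ± 0.08 (SE), and Uhrf1, which guides it to DNA, one of -0.14 ± 0.08 (SE). Of 10 genes for the E2F6 complex, Ring1, a polycomb ubiquitin ligase gene, rose 1.44-fold (16.9, 19.5 and 18.2 CPM in controls, 23.4 and 28.9 CPM in KO libraries; edgeR adjusted p = 0.03). It missed the threshold without any 1 control, without KO replicate 2 and with no filter (adjusted p 0.085 to 0.14), and it lies on chromosome 17, 1.09 Mb from Csnk2b, as does Cdkn1a at 6.02 Mb. Among 20 genes for the turnover and modification of E2F and RB proteins none passed in edgeR or limma-voom, and DESeq2 called Usp7 lower. In edgeR 4 of the 20 had an unadjusted p under 0.05, 3 of them lower, beside 23.8% and 9.48% of all genes. Usp7, a deubiquitinase gene, had a log2 fold change of -0.27 ± 0.09 and Ddb1, for a CUL4 ligase adaptor, one of 0.14 ± 0.08 (SE).

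Genes that E2F factors regulate mostly had log2 fold changes below 0, with few single calls. Of 55 textbook G1/S targets tested, leaving out the 5 that are E2F or RB family genes, 51 had a log2 fold change below 0. Their median was -0.13, while 47.5% of all genes were below 0. In edgeR 2 of the 55 fell and 0 rose, against 1.83% and 5.15% of all genes. At an unadjusted p under 0.05, 18 of the 55 were lower, against 9.48% of all genes. Both KO libraries lay below all controls in 56.4% of the 55, against 19.3% of all genes. Wdhd1, a replication fork protein gene, was at 299.8, 295.5 and 299.9 CPM in controls and at 249 and 228 CPM in KO libraries (edgeR adjusted p = 0.03). Tyms, for thymidylate synthase, had a log2 fold change of -0.30 ± 0.07 (SE; edgeR adjusted p = 0.04). Both missed the threshold in each fit that left out a control or KO replicate 2, with no filter on low counts and with the replicate block (adjusted p 0.063 to 0.15). Of 35 MuvB targets of G2/M none passed in edgeR or limma-voom, and DESeq2 called 1 lower. In edgeR 7 of the 35 had an unadjusted p under 0.05, 5 of them lower, against 23.8% and 9.48% of all genes. The median of the 35 was -0.072, or -0.17 if KO replicate 1 and -0.015 if KO replicate 2 was left out. The value for Top2a, which encodes a topoisomerase of dividing cells, was -0.07 ± 0.09 (SE).

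**Figure D4:**
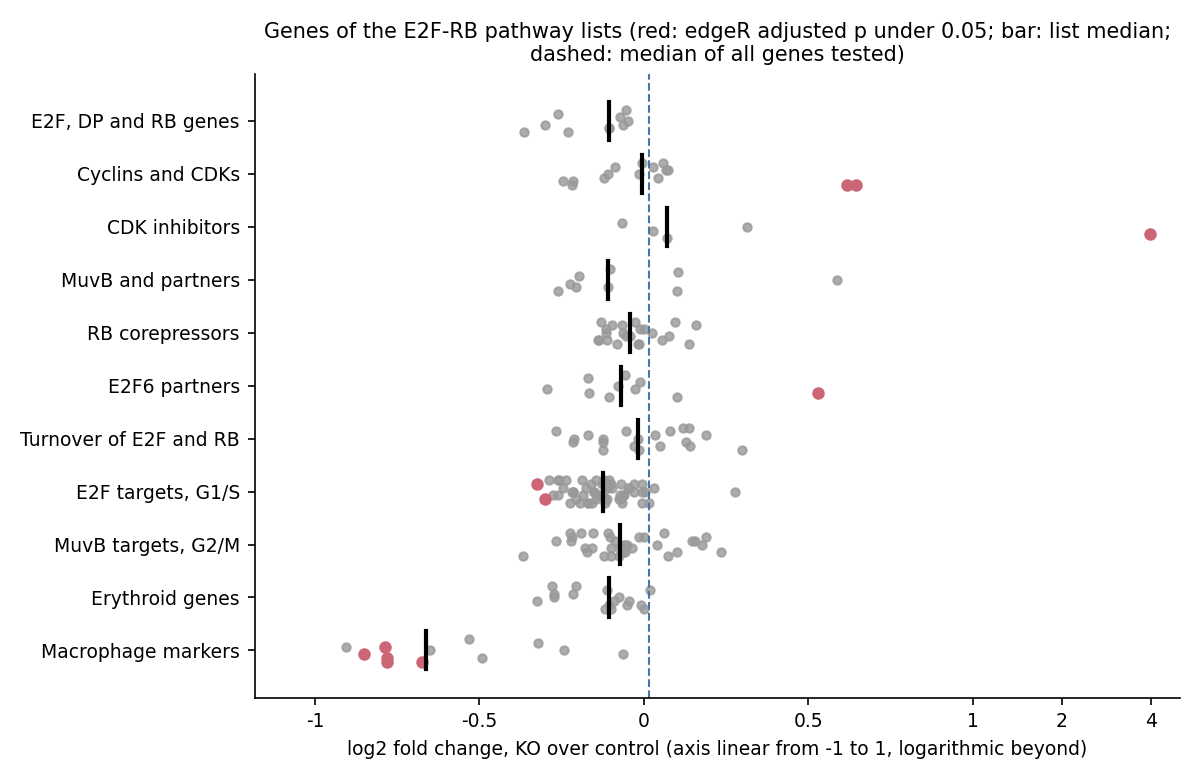
Log2 fold change of each gene (dot) in the lists of E2F-RB pathway genes and of erythroid and macrophage genes, with genes past the edgeR threshold in red, list medians as black bars and the median of all genes dashed; the axis is linear between -1 and 1 and logarithmic beyond. The G1/S targets have a median of -0.13 with 2 red dots, and the red dot at the far right is Cdkn1a.

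Over all genes with a RefSeq promoter window, those with E2F letters moved little. The median log2 fold change was -0.019 over 458 tested genes with such letters and 0.021 over 8807 without. In edgeR 1.31% of the former were lower and 3.93% higher, and of the latter 1.93% and 5.72%.

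Markers of other cell types were compared because they share the sorted fraction. Macrophage markers were lower in KO libraries, at a summed 95.3 to 101 CPM against 128 to 141 CPM in controls. In edgeR 5 of 12 fell, against 1.83% of all genes, among them Cd5l, Adgre1, Marco and Vcam1. At an unadjusted p under 0.05 in edgeR 11 of the 12 were lower, against 9.48% of all genes. Adgre1, Marco and Vcam1 missed the edgeR threshold without any 1 control, and Marco and Vcam1 also without KO replicate 2 (adjusted p 0.053 to 0.080). Cd5l missed it without control replicate 2 (edgeR adjusted p = 0.065) and with no filter (edgeR adjusted p = 0.054). None of the hepatocyte (11 genes), megakaryocyte (7), granulocyte and mast cell (9), lymphoid (6), endothelial (6) or early progenitor (10) lists had a gene past the edgeR threshold. At an unadjusted p under 0.05 those lists held 0, 3, 0, 0, 2 and 1 genes, beside 23.8% of all genes tested. In each list limma-voom called 0, and DESeq2 called 1 gene in all, a megakaryocyte gene that was higher. In the early progenitor list 6 log2 fold changes were below 0 and 4 above, with a median of -0.013. Its 2 most abundant genes were Kit and Myb. Kit, the stem cell factor receptor of earlier precursors, had a log2 fold change of -0.30 ± 0.08 (SE; edgeR adjusted p = 0.059). Myb, a progenitor transcription factor gene, had one of -0.16 ± 0.09 (SE; edgeR adjusted p = 0.31). The part of these cells in the values of the E2F, DP and RB genes was not tested.

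The genes with the most similar profile were to be named for each family gene past the threshold, and none passed. Profiles are given for Tfdp2, Rbl1, E2f4 and E2f8, which had an unadjusted p under 0.05 in edgeR, a choice made after their values were seen. Likeness was the Euclidean distance between log2(CPM + 0.5) values over the 5 libraries, each gene centred on its control mean. The search covered 7617 genes with a mean of at least 10 CPM and no placeholder name. Zfp800, Bbs1 and Endod1 lay closest to Tfdp2, each at a distance of 0.033. Atad5, Dnase1l1 and Nr3c1 lay closest to Rbl1, at 0.026 to 0.033. Atp7b, Prcp and Necap2 lay closest to E2f4, at 0.036 to 0.042. Epb42, Ctse and Fryl lay closest to E2f8, at 0.046 to 0.062. Epb42 encodes protein 4.2 of the red cell membrane and had 1322 to 1389 CPM in controls, 1220 in the first KO library and 933 in the second.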

How the data were processed

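The 5 libraries were read on an Ion Proton from purified mRNA, per the labels' protocols. The submitters' processing notes name mm10 (GRCm38) as the genome build and list HTSeq, STAR, Bowtie and cutadapt without versions, order or settings. The authors deposited whole-number counts per Ensembl gene, not normalised, and 37693 of 39179 identifiers matched GENCODE M21. The 3 control and 2 KO libraries were grouped by title, with 0 columns left out.

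Counts were tested with edgeR 4.0.16 in R 4.3.3 (quasi-likelihood test, TMM factors 0.970 to 1.03, filterByExpr, design of group alone), with p-values adjusted by Benjamini-Hochberg over the 13000 genes that passed the filter. CPM values use TMM-adjusted library sizes, and standard errors and 95% intervals come from the fold change, the F statistic and 6.92 to 8.92 total degrees of freedom. The fit was tested on simulated data. At these depths 1 CPM is 13.2 to 15.4 counts, and reads carry no molecular identifiers.

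The genes, lists and tests were chosen with earlier results of these data known. Named are the 10 genes, E2f5, E2f6 and E2f7, Csnk2b, and per list up to 4 genes past the threshold, taken by smallest p, or else the 2 most abundant. Genes of the hepatocyte, megakaryocyte, granulocyte, lymphoid and endothelial lists are given as counts, and 1 macrophage gene beyond the 4 is not named. Ahsp and Cdk3 were not matched. Alternatives were DESeq2 1.42.0, limma-voom 3.58.1, scaling by RLE, removal of mitochondrial and globin genes, no filter, at least 5 CPM in 2 libraries, the replicate number as a block, and each library left out. Protein sequences were not used here.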

Additional observations from a re-analysis of the deposited data

How the results depend on the processing

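Of 120 values for the 10 genes over 12 alternatives, 112 kept their direction and their side of the threshold. The exceptions were Tfdp2 in DESeq2 and, without KO replicate 1, the side of the threshold for E2f8, Tfdp2, Rbl1 and Rb1. Without KO replicate 2 the direction of 3 genes turned. Over the fits that left out 1 library the log2 fold change ran from -0.23 to 0.058 for E2f2, -0.25 to 0.11 for Rb1, -0.15 to 0.014 for Rbl2, -0.23 to 0.095 for E2f7 and -0.18 to 0.17 for Hbb-bs. The number of the 10 genes called lower was 1 with DESeq2 and ran from 0 to 4 when a library was left out. Over all genes, calls higher and lower numbered 669 and 238, then 235 and 53 with no filter on low counts, and 210 to 1709 and 31 to 1247 when a library was left out. Among the 163 other pathway genes 4 were called higher and 2 lower, with 2 and 0 with no filter, 4 lower in DESeq2, and 2 to 6 and 0 to 37 when a library was left out. With the replicate block 702 genes were higher and 171 lower, 0 of the 10 genes and 0 of the other pathway genes were called lower, and Tfdp2 had an adjusted p of 0.20. The numbers are not shown to pair embryos. Deviations from the group means correlated at 0.0096 for replicate 1 and 0.056 for replicate 2, beside 0.051 for control replicate 3 with KO replicate 1. The deviations of 2 KO libraries from their own mean mirror each other, so these values cannot show pairing or its absence. With the longest transcript as the length the E2f4 share was 45.1% in controls and that of Tfdp2 60.3% in controls and 55.7% in KO libraries. The cause of these changes was not tested. With 3 and 2 libraries, the 95% intervals of 6 of the 10 genes included 0, and an interval that includes 0 does not show equal levels.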
